A study of Mus musculus with 7 samples.

Results

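The miR-30 family was measured by small RNA sequencing of mouse hippocampus in 7 libraries. Its members were all mature products of the miR-30a, miR-30b, miR-30c-1, miR-30c-2, miR-30d and miR-30e hairpins, chosen by name. They comprised 5 guide products, mmu-miR-30a, mmu-miR-30b, mmu-miR-30c, mmu-miR-30d and mmu-miR-30e (written below without the species prefix), and 6 star products, the less abundant strands written with an asterisk. These 11 products came from 12 mature loci, since both miR-30c hairpins give the same guide, and they stood among 756 mature sequences in all. Each guide was abundant and varied little between libraries. None of the 11 products passed the test in the 5 comparisons tested, and 0 of all 476 miRNAs tested passed it either. The non-trained groups, with a single library each, were compared without a test.

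The study asked which miRNAs of the hippocampus change with learning and with loss of protein phosphatase 1 (PP1) function. PP1 was inhibited by a transgene, NIPP1*, which encodes an EGFP-tagged fragment of the nuclear PP1 inhibitor NIPP1 that binds the phosphatase. Doxycycline in the food switched it on through a tetO promoter, and the rtTA2 transactivator this needs was driven by CaMKIIalpha, a promoter active in forebrain neurons. Controls, wildtype by the labels, were littermates. All mice were adults of 3 to 5 months on a C57BL/6 background, and each library was made from pooled hippocampi. Trained mice explored unfamiliar objects in an arena (object recognition training, NOR in the study), and non-trained mice were habituated to the same arena without objects. The labels give the trained groups 3 libraries (controls) and 2 libraries (NIPP1*), and the non-trained groups a single library for each genotype. No source says whether the libraries of a group came from separate pools of mice, so the p-values measure the spread between libraries, which may be technical. In pooled tissue, fewer cells of a type and less RNA per cell cannot be told apart.

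The libraries held 7285196 to 10017762 miRNA reads. Values are miRNA reads scaled to a library of 1000000 (RPM), in which 1 read was worth 0.0998 to 0.137 RPM. Markers of neurons, such as miR-124 and miR-128, summed to 77717 to 89461 RPM in the 7 libraries. Of the 4 hindbrain markers, miR-10a and miR-10b were found with miR-196b, which was at 0 in at least 1 library, and together they reached at most 48.0 RPM. The transgene itself cannot be read from small RNA, so the genotype labels could not be checked directly. The labels of the trained groups conflicted with the authors' own group means. Over 319 miRNAs, the authors' mean for trained controls was rebuilt with a root mean square error of 0.0187% by the 2 libraries labelled trained NIPP1*, and of 15.6% by the 3 libraries labelled trained control. Their mean for trained NIPP1* mice was rebuilt with an error of 0.0231% by the 3 libraries labelled trained control, and of 18.2% by those labelled trained NIPP1*. The libraries were weighted freely in these fits, and adding the first library labelled trained control to the 2 labelled trained NIPP1* gave it a weight of 0.0001. The labels were kept here, every direction between the trained groups would turn if they were exchanged, and the comparison of trained with non-trained libraries over both genotypes does not depend on them.

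A miRNA is cut from a hairpin precursor as a duplex, from which 1 strand, the guide, is loaded into an Argonaute protein, and the other, the star strand, is mostly degraded. The guide finds its target mRNAs mainly through its seed, bases 2 to 8 from the 5′ end, so miRNAs that share a seed are grouped into a family and can share targets. The miR-30 family is widely expressed in mammalian tissues, the brain included.

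The sequences are shown to give the seed that these guides share and the bases outside it that tell them apart. They are taken from RefSeq (GRCm38.p6), which matched 7 of the 11 products, and each was the same as the sequence at its locus in the mm9 genome. The seed is in capitals. The 3 guides shown and miR-384-5p, a miRNA from a hairpin on another chromosome, have the same seed:
miR-30a: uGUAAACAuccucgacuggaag
miR-30e: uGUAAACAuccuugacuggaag
miR-30c: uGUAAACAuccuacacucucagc
miR-384-5p: uGUAAACAauuccuaggcaaugu

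The 4 star strands shown carry other seeds, and fall into 2 pairs by them:
miR-30a*: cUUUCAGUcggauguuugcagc
miR-30e*: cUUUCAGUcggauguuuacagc
miR-30c-1*: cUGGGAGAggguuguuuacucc
miR-30c-2*: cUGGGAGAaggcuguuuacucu

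Counted from 1 at the 5′ end, miR-30a and miR-30e differ by 1 base of 22, C13U, and their star strands by 1 base, G18A. The 2 most abundant guides of the family are thus told apart by a single base, and since the mismatches allowed in mapping are not given in the sources used here, reads exchanged between them could not be assessed for any value of either. miR-30a and miR-30c are identical over their first 12 bases and differ at 5 of the 22 positions compared, whereas miR-384-5p matches miR-30a over the first 8 bases and differs at 10 of 22. miR-30b, miR-30d and their star strands are not shown.

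The 6 hairpins lie in 3 pairs (NCBI37/mm9). Mir30a, at chr1:23279108-23279178, and Mir30c-2, at chr1:23298540-23298623, are on the plus strand, 19361 bp apart, and neither overlaps another annotated gene. Mir30b, at chr15:68168977-68169072, and Mir30d, at chr15:68172770-68172851, are on the minus strand, 3697 bp apart, and also overlap no other annotated gene. Mir30c-1, at chr4:120442139-120442227, and Mir30e, at chr4:120445211-120445302, are 2983 bp apart in introns of Nfyc, on the same strand as that gene, which encodes a subunit of the transcription factor NF-Y. Since the miR-30c guide is the same from both of its hairpins, its reads cannot be divided between chromosomes 1 and 4.

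miR-30a was the most abundant guide, and ranked number 16 of the 756 sequences by mean level. Its level was 12380 RPM in the non-trained control library and 12970 RPM in the non-trained NIPP1* library. It was 12440, 11480 and 11330 RPM in the libraries labelled trained control, and 12340 and 14190 RPM in those labelled trained NIPP1*. The values of the trained groups overlapped, and both non-trained libraries lay within the range of the trained ones.

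miR-30e, from the Nfyc intron, was second in the family and number 21 overall. Its level was 11560 RPM in the non-trained control library and 10570 RPM in the non-trained NIPP1* library. The libraries labelled trained control held 10840, 9557 and 9460 RPM and those labelled trained NIPP1* 10840 and 11520 RPM. The non-trained control library was thus the highest of the 7, and the trained groups met at the same value. miR-30a exceeded miR-30e in 7 of 7 libraries, by 1.07 to 1.23 times, although their ranges across libraries overlapped.

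miR-30d was at 7486 RPM in the non-trained control library and 8561 RPM in the non-trained NIPP1* library, which were the lowest and the highest of the 7. It was at 7668, 7603 and 8043 RPM in the libraries labelled trained control, and at 7621 and 8324 RPM in those labelled trained NIPP1*. Its range did not overlap that of miR-30e above it or of miR-30c below it. miR-30d and miR-30b come from hairpins of the same pair, but in every library miR-30d was the more abundant by far, with miR-30b at 0.104 to 0.129 times its level.

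miR-30c, the guide made from both chromosomes 1 and 4, was at 2356 and 2561 RPM in the non-trained control and NIPP1* libraries, at 2607, 2277 and 2282 RPM in those labelled trained control, and at 2435 and 2497 RPM in those labelled trained NIPP1*. Its lowest and highest values were both in the trained control group. miR-30b was the least abundant guide, at 934.2 and 931.4 RPM in the non-trained control and NIPP1* libraries, at 948.6, 825.9 and 838.2 RPM in those labelled trained control, and at 986.4 and 901.0 RPM in those labelled trained NIPP1*. The order miR-30a, miR-30e, miR-30d, miR-30c, miR-30b was the same in 7 of 7 libraries.

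**Figure D1:**
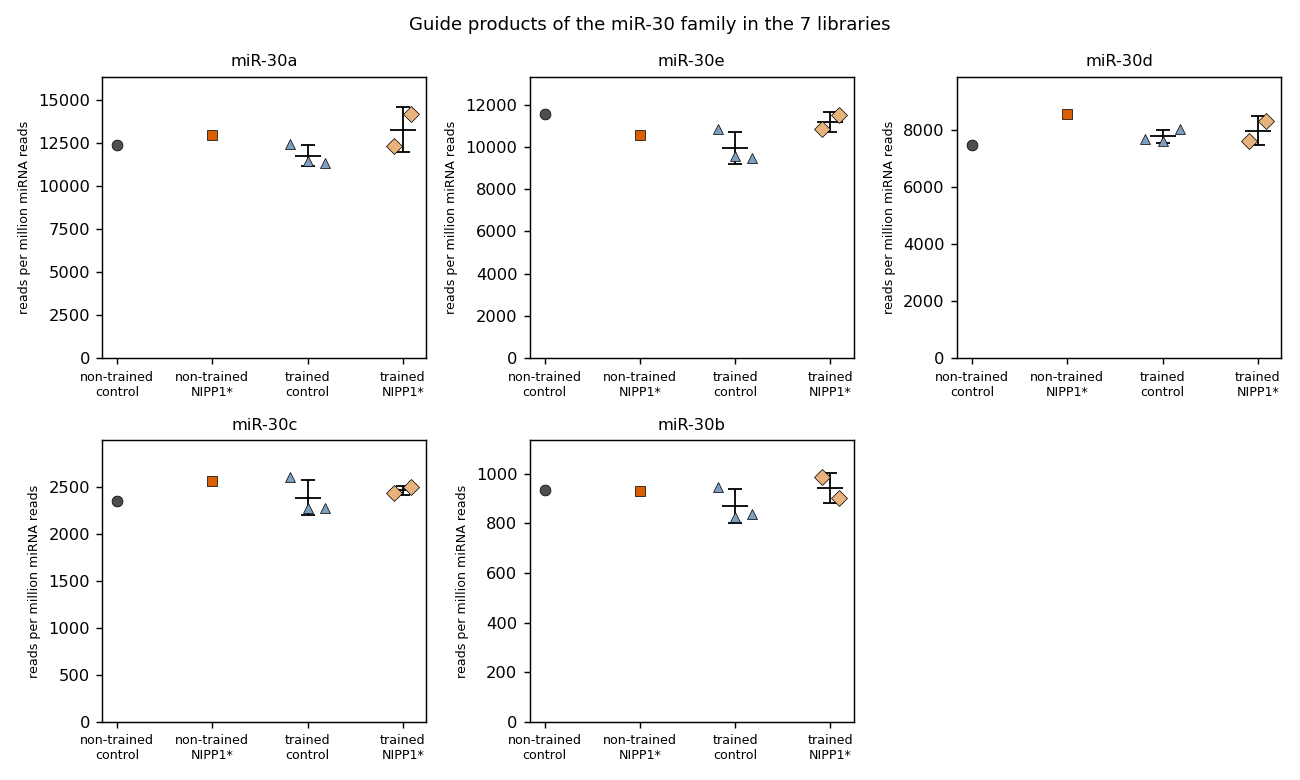
Levels of the 5 miR-30 guide products in RPM (vertical axes, from 0) in the 4 groups. Each point is 1 library, and the bars of the trained groups are the mean ± SD (n = 3 and n = 2). Within each panel the points of all groups lie close together, at most 1.25 times apart for miR-30a.

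Together the 5 guides made up 3.47% and 3.56% of the miRNA reads in the non-trained control and NIPP1* libraries. They made up 3.45%, 3.17% and 3.20% in the libraries labelled trained control, and 3.42% and 3.74% in those labelled trained NIPP1*. Their sum was 32733 ± 1537 RPM (SD, n = 3) in the libraries labelled trained control and 35827 ± 2270 RPM (SD, n = 2) in those labelled trained NIPP1*, and the single values of these groups overlapped (up to 34500 RPM in the former, down to 34220 RPM in the latter). The make-up of the sum was steady, with miR-30a at 35.5% to 37.9%, miR-30e at 29.6% to 33.3%, miR-30d at 21.6% to 25.2%, miR-30c at 6.67% to 7.56% and miR-30b at 2.41% to 2.88% of it in the 7 libraries.

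The guides were among the steadiest miRNAs of the hippocampus. The SD of log2(RPM + 0.5) over the 7 libraries was 0.109 for miR-30a, 0.116 for miR-30e, 0.075 for miR-30d, 0.078 for miR-30c and 0.094 for miR-30b, against a median of 0.193 over the 319 miRNAs that averaged 100 or more reads. Of these 319 miRNAs, 12.5% had a smaller SD than miR-30e, the most variable guide, and 2.82% a smaller one than miR-30d. High counts lower the counting part of such an SD, and each guide had at least 6553 reads in every library. As a description, the summed guides of other abundant families ranged from 177900 to 226100 RPM for the 9 members of the let-7 and miR-98 family (SD of log2 0.127), from 47720 to 54750 RPM for miR-26a and miR-26b (0.071) and from 135900 to 158000 RPM for miR-29a, miR-29b and miR-29c (0.077). The SD for the miR-30 guides was 0.084, within the span of these 3 families.

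The ratios between guides were compared to see whether hairpins that are neighbours in the genome kept a steadier ratio. The SD of the log2 ratio over the 7 libraries was lowest for miR-30b to miR-30c, at 0.069, and for miR-30a to miR-30e, at 0.072, both made of guides with no hairpins in the same pair. For the guides that share a pair, it was 0.079 for miR-30a to miR-30c, 0.096 for miR-30c to miR-30e and 0.126 for miR-30b to miR-30d, the last being the second highest of the 10 pairs. The highest was miR-30d to miR-30e, at 0.139. The miR-30c reads come from both chromosomes 1 and 4 and cannot be divided. Only miR-30b to miR-30d thus compares guides made wholly within 1 pair, so the ratios cannot answer the question for neighbours in general. These values describe 7 libraries and were not tested.

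Outside the family, the 5 of 311 miRNAs whose log2 level kept the steadiest difference from the summed guides over the 7 libraries were miR-551b (SD of the difference 0.046), miR-99a (0.048), miR-29a (0.049), miR-1839-5p (0.053) and miR-221* (0.063). The median SD of the difference over all 311 was 0.193. The SDs of their own log2 levels were 0.1, 0.105, 0.073, 0.052 and 0.089 in the same order, and that of the summed guides 0.084. A steady level of both is enough to give a small SD of the difference, so these values do not show that they vary together. miR-99a, at 11910 to 14590 RPM, was as abundant as miR-30a, whereas miR-221* was at 235.2 to 281.6 RPM.

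The star strands split into 3 abundant and 3 scarce products. miR-30e* was at 452.4 and 485.0 RPM in the non-trained control and NIPP1* libraries. It was at 430.0, 398.7 and 411.7 RPM in the libraries labelled trained control, and at 421.8 and 431.6 RPM in those labelled trained NIPP1*. Both non-trained libraries were above all 5 trained ones with this scaling by total reads, but not with the DESeq2 size factors given below. miR-30a* was at 428.1 and 440.6 RPM, at 418.3, 390.8 and 367.7 RPM, and at 403.3 and 436.2 RPM in the same order, and its trained and non-trained values overlapped. miR-30e* exceeded miR-30a* in 6 of 7 libraries, the reverse of the order of their guides.

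The miR-30c hairpins, which give the same guide, differed in their star strands. miR-30c-2*, from chromosome 1, was at 161.6 and 167.0 RPM in the non-trained control and NIPP1* libraries, at 136.2, 176.8 and 172.9 RPM in those labelled trained control and at 164.6 and 164.9 RPM in those labelled trained NIPP1*. miR-30c-1*, from the Nfyc intron, was at 10.01 and 10.65 RPM, at 7.93, 10.78 and 10.74 RPM, and at 9.75 and 8.29 RPM in the same order. miR-30c-2* thus exceeded miR-30c-1* by 15.7 to 19.9 times in the 7 libraries, and the first trained control library was the lowest of the 7 for both. The reads do not show how much of the shared guide came from each hairpin.

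miR-30d*, the partner of an abundant guide, was at 7.54 RPM in the non-trained control library and 6.57 RPM in the non-trained NIPP1* library. It was at 4.39, 2.99 and 3.84 RPM in the libraries labelled trained control, and at 4.53 and 4.69 RPM in those labelled trained NIPP1*. Both non-trained libraries were above all 5 trained ones. These levels rest on 25 to 67 reads. Of the 10 pairs of a non-trained and a trained library, the 95% Poisson intervals overlapped in 7 and were apart in 3. The interval of the non-trained control library, 5.84 to 9.57 RPM, lay above those of replicates 2 and 3 of the libraries labelled trained control, 1.94 to 4.42 and 2.59 to 5.48 RPM, and that of the non-trained NIPP1* library, 4.92 to 8.59 RPM, lay above that of replicate 2. Intervals of this kind cover counting error only.

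miR-30b* was the least abundant product, with 19 to 41 reads. It was at 3.71 and 2.35 RPM in the non-trained control and NIPP1* libraries, at 3.41, 2.51 and 3.20 RPM in those labelled trained control, and at 3.71 and 4.09 RPM in those labelled trained NIPP1*. The non-trained NIPP1* library was the lowest of the 7, and its interval, 1.42 to 3.68 RPM, overlapped that of the highest, 2.94 to 5.55 RPM.

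**Figure D2:**
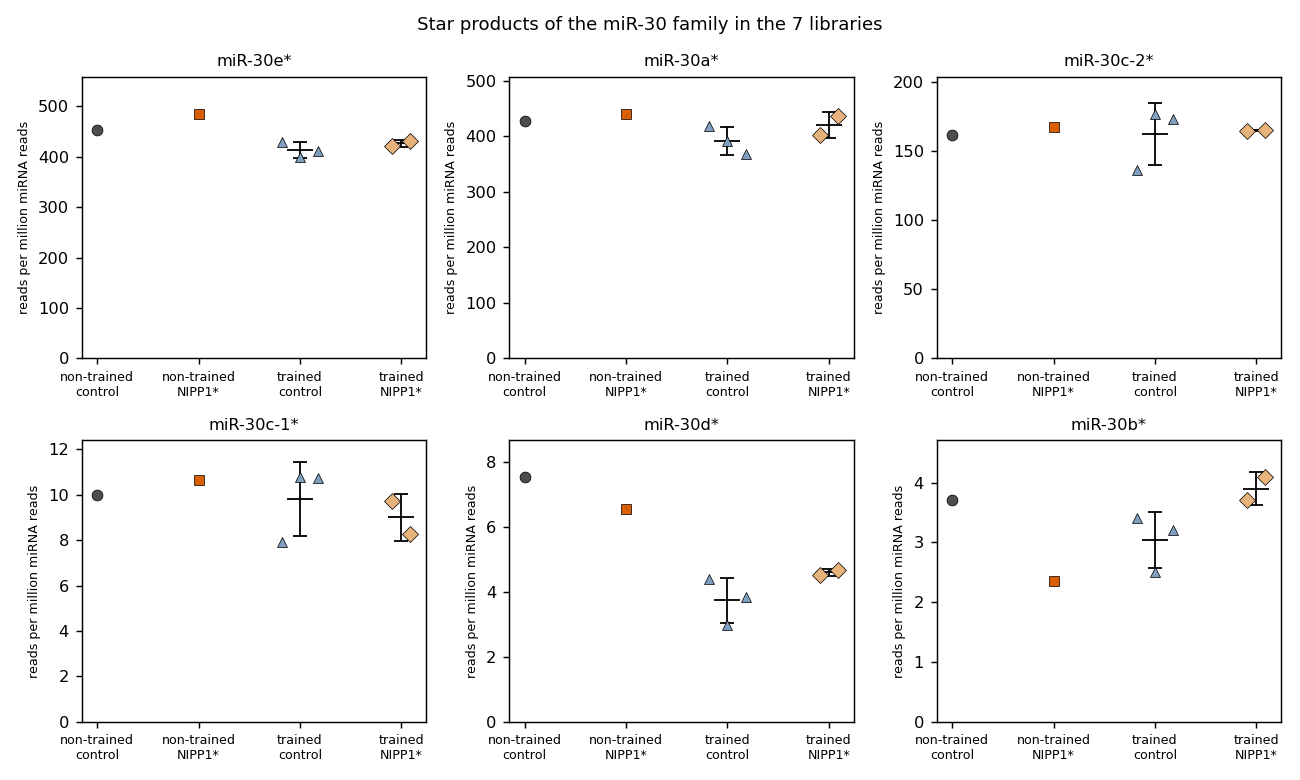
Levels of the 6 miR-30 star products in RPM (vertical axes, from 0) in the 4 groups. Each point is 1 library, and the bars of the trained groups are the mean ± SD (n = 3 and n = 2). In the panels of miR-30e* and miR-30d* both non-trained libraries lie above all 5 trained ones, with scaling by total reads.

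**Figure D3:**
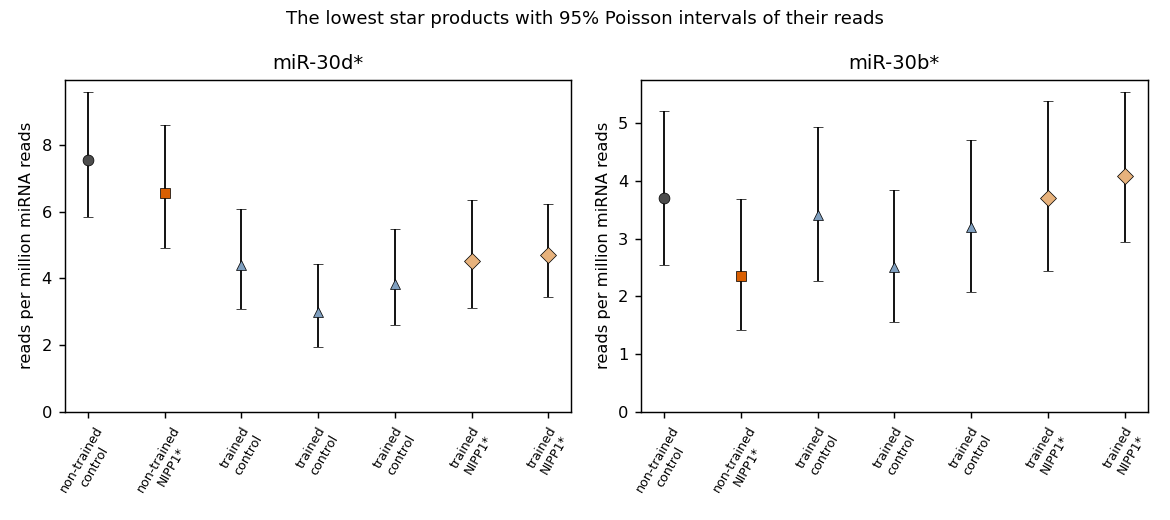
The lowest star products, miR-30d* and miR-30b*, in each of the 7 libraries, in RPM (vertical axes, from 0). Bars are 95% Poisson intervals of the reads, and for miR-30d* the interval of the non-trained control library overlaps those of 3 of the 5 trained libraries and that of the non-trained NIPP1* library those of 4 of 5.

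The share of a hairpin's reads that came from the star strand differed between hairpins far more than between libraries. It was 2.98% to 3.34% for miR-30a and 3.61% to 4.39% for miR-30e, the hairpins whose mature strands differ by 1 base on each arm. It was 0.252% to 0.452% for miR-30b and 0.0393% to 0.101% for miR-30d. Over 186 hairpins with 2 measured strands, each from 1 locus, and 100 or more reads on average, the median share of the minor strand was 2.06%. Of these hairpins, 55.4% had a smaller share than miR-30a, 59.1% than miR-30e, 24.2% than miR-30b and 8.06% than miR-30d.

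For miR-30c, both star strands together made 5.24% to 7.61% of the reads of the guide and the stars. Set against the whole guide, miR-30c-2* made 4.97% to 7.21% and miR-30c-1* 0.303% to 0.471%, and these are lower limits of each hairpin's own share, since the guide reads cannot be divided. miR-30d had 993 to 2543 guide reads for each star read. That ratio was lowest in the non-trained control library, in which the star strand was 0.101% of the reads, and the share was 0.0767% in the non-trained NIPP1* library and 0.0393% to 0.0594% in the 5 trained ones.

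**Figure D4:**
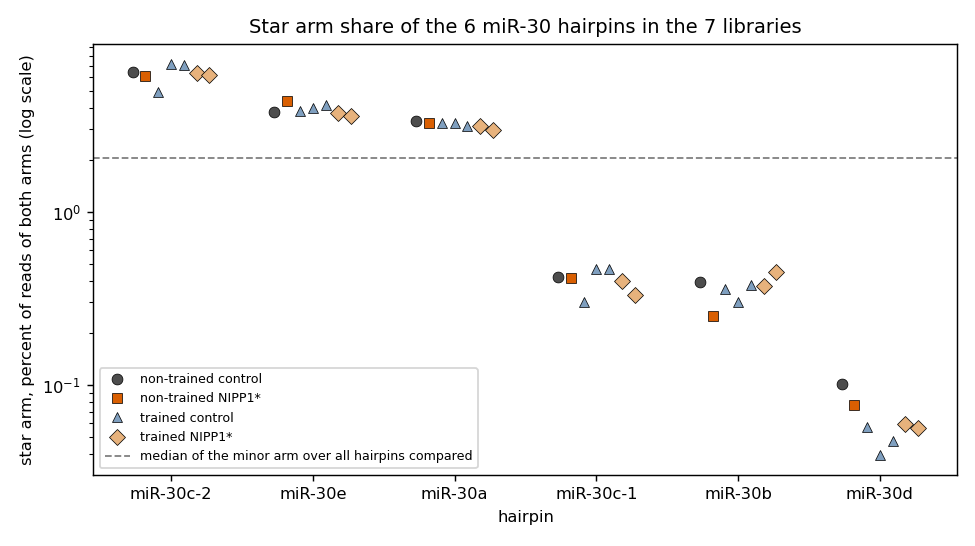
Star strand as a percentage of the reads of both strands (vertical axis, log scale) for each of the 6 miR-30 hairpins, with 1 point for each of the 7 libraries. For both miR-30c hairpins the whole miR-30c guide was used, and the dashed line is the median of the minor strand over 186 hairpins, 2.06%. miR-30c-2, miR-30e and miR-30a lie above the line, and miR-30c-1, miR-30b and miR-30d below it, in all 7 libraries.

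miR-384-5p, which has the miR-30 seed but lies on the X chromosome (hairpin at chrX:102539621-102539708, minus strand), was scarce beside the summed guides. It was at 423.4 and 373.2 RPM in the non-trained control and NIPP1* libraries, at 408.0, 364.4 and 311.1 RPM in those labelled trained control, and at 379.7 and 400.2 RPM in those labelled trained NIPP1*. That was 0.964% to 1.20% of the reads of miR-384-5p and the 5 guides. The strands of this hairpin were nearly equal, with miR-384-3p at 41.8% to 49.4% of the reads, a larger minor share than in 98.4% of the 186 hairpins.

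Training was compared over both genotypes first, since this comparison does not depend on the labels of the trained groups. All 11 products averaged 10 or more reads and were tested with limma on log2(RPM + 0.5) among 476 miRNAs. Of the 11, 0 passed an adjusted p of 0.05 (Benjamini-Hochberg over all 476), as did 0.0% of all miRNAs tested, with 1 of the 11 and 16 of the 476 (3.36%) at an unadjusted p below 0.05. edgeR called 0 of the 476 and DESeq2 1, and neither called a miR-30 product. The log2 differences of the guides, trained minus non-trained, ran from -0.07 ± 0.09 (SE) for miR-30e to -0.02 ± 0.10 for miR-30c, and the latter was above 0 with TMM scaling, edgeR and DESeq2. With TMM scaling miR-30e was at -0.01, and leaving out single trained libraries gave it -0.10 to -0.05. The median over the 11 products was -0.04, against -0.05 over all miRNAs. It was 0.01 with TMM scaling (0.00 over all). The median was -0.07 without the first library labelled trained control (-0.05 over all) and also without the second labelled trained NIPP1* (-0.06 over all). With scaling by total reads 10 of 11 products were below 0, and of all 476 miRNAs 39.5% were above 0. With TMM scaling 5 of 11 products were below 0.

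The star strands held the largest differences of this comparison. miR-30d* was lower in the trained libraries by -0.70 ± 0.21 on the log2 scale, and this had the only unadjusted p below 0.05 in the family in this comparison (limma, adjusted p = 0.873). miR-30e* differed by -0.16 ± 0.11 (limma, adjusted p = 0.873) and miR-30b* by 0.18 ± 0.21 (limma, adjusted p = 0.922). miR-384-5p, which has the guides' seed but is not among the products chosen by name, differed by -0.09 ± 0.14 (limma, adjusted p = 0.958). With TMM scaling miR-30e* was at -0.10 and miR-384-5p at -0.03, and without the last library labelled trained control the latter was at -0.04. With edgeR miR-30b* was at 0.28. With scaling by total reads, the trained libraries were all below the non-trained ones for miR-30d* and miR-30e*, 2 of 11 products. That held for 8.19% of the 476 miRNAs tested. The miR-30e* gap depended on the scaling. The DESeq2 size factors relative to depth were 1.037 for the non-trained control library and 0.9381 for the last library labelled trained control. Dividing by them puts miR-30e* higher in the latter, so its groups overlap. The trained libraries were wholly above the non-trained ones for 0 of 11 products, and for 3.36% of all. Markers of blood vessels, such as miR-126-3p and miR-143, also did not overlap between these groups, with their 4 members summing to 14791 to 14824 RPM in the non-trained and 15486 to 18452 RPM in the trained libraries. Their part in these differences was not tested.

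Training was then compared within each genotype, each time against a single non-trained library. In controls, 0 of the 11 products passed (limma; 0.0% of the 476 passed), with 1 of 11 and 28 of 476 (5.88%) at an unadjusted p below 0.05. edgeR called 0 and DESeq2 1 of the 476, none of them a miR-30 product. The guides ran from -0.22 ± 0.13 for miR-30e (adjusted p = 0.666) to 0.05 ± 0.12 for miR-30d, and their standard errors were 0.12 to 0.16. The value of miR-30e was -0.13 with TMM scaling and -0.05 with the trained groups exchanged, and that of miR-30d 0.14 and 0.09, with 0.03 without the last library labelled trained control. Among the star strands, miR-30d* differed by -0.94 ± 0.29 (limma, adjusted p = 0.666) and miR-30c-2* by -0.01 ± 0.21, which was above 0 with TMM scaling, edgeR and DESeq2 and without the first trained control library. The median of the 11 products was -0.10, that of all miRNAs -0.09, and the former was 0.01 with the trained groups exchanged, -0.01 with TMM scaling (0.00 over all) and -0.16 without the first library labelled trained control (-0.12 over all). The number of products below 0 was 9 of 11 with scaling by total reads, where 40.5% of all 476 miRNAs were above 0. It was 6 of 11 with TMM scaling. Of the 8 marker lists, 4 lay apart in this comparison. Oligodendrocyte markers, miR-219-5p and both strands of miR-338, were at 2808 to 3333 RPM in the libraries labelled trained control against 4850 RPM. Markers listed for the pituitary, miR-7a, miR-7b and miR-375, were at 7532 to 11148 against 14200 RPM. Which cells of these samples these miRNAs came from was not tested. Neuronal markers were at 80884 to 89461 against 77717 RPM and blood vessel markers at 15486 to 18452 against 14824 RPM. Their part in these values was not tested.

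In NIPP1* mice, 0 of the 11 products passed (limma; 0.0% of the 476 passed), with 0 of 11 and 21 of 476 (4.41%) at an unadjusted p below 0.05, and edgeR called 0 and DESeq2 2 of the 476, again none of the family. The guides ran from -0.10 ± 0.13 for miR-30d to 0.08 ± 0.14 for miR-30e. miR-30d* differed by -0.47 ± 0.30 (adjusted p = 0.973) and miR-30b* by 0.63 ± 0.30 (adjusted p = 0.973), where the single non-trained NIPP1* library held the lowest miR-30b* count of the series, 19 reads. With the trained groups exchanged these were -0.75 and 0.30. The value of miR-30d was -0.04 without the first library labelled trained NIPP1* and -0.17 without the second, and that of miR-30e 0.12 and 0.04. The median of the 11 products was -0.05, and that of all miRNAs -0.03. With TMM scaling they were -0.03 and -0.01, and with the trained groups exchanged -0.13 and -0.09. Of the 8 marker lists, 7 lay apart here, all but that of the choroid plexus. A single library need only fall outside the range of 2 for this, which random order alone would give more often than not. Relative to the single non-trained NIPP1* library, the libraries labelled trained NIPP1* were lower in markers of neurons (79434 to 81830 against 87349 RPM), of leukocytes and microglia (1158 to 1354 against 1654 RPM) and of the hindbrain (31.5 to 33.4 against 40.8 RPM). They were higher in markers of oligodendrocytes (4162 to 4426 against 3885 RPM), blood vessels (16283 to 17204 against 14791 RPM), red blood cells (145 to 272 against 90.1 RPM) and the pituitary (10878 to 11931 against 9972 RPM), and the part of these lists in the values was not tested.

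The difference between these training effects, NIPP1* minus control, was tested in the same model. It passed for 0 of the 11 products (limma; 0.0% of the 476 passed), with 0 of 11 and 37 of 476 (7.77%) at an unadjusted p below 0.05, and edgeR called 0 and DESeq2 2 of the 476, none of the family. The guides ran from -0.16 ± 0.17 for miR-30d to 0.30 ± 0.19 for miR-30e (adjusted p = 0.762), and the star strands from -0.19 ± 0.40 for miR-30c-1* to 0.88 ± 0.42 for miR-30b* (adjusted p = 0.696), with 0.47 ± 0.42 for miR-30d* (adjusted p = 0.874). For miR-30e, miR-30c-1* and miR-30d* the sign turned when the trained groups were exchanged, and miR-30b* was then 0.24. The median over the 11 products was 0.06, against 0.03 over all miRNAs, with 5 of 11 below 0 and 52.9% of all miRNAs above 0. With the exchange the median was -0.11, with 9 of 11 below 0, and with TMM scaling it was -0.01, with 6 of 11 below 0. It was 0.10 without the first library labelled trained control and 0.00 without the second labelled trained NIPP1*.

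Between the trained groups, by their labels, 0 of the 11 products passed (limma; 0.0% of the 476 passed), with 0 of 11 and 34 of 476 (7.14%) at an unadjusted p below 0.05. edgeR called 0 and DESeq2 1 of the 476, none of the family. The most abundant guides had the largest guide differences, NIPP1* minus control, with 0.17 ± 0.10 for both miR-30a and miR-30e (adjusted p = 0.662 for each), and miR-30d had the smallest, 0.04 ± 0.09, which was below 0 with TMM scaling, edgeR and DESeq2. With TMM scaling miR-30a and miR-30e were at 0.10 each, and miR-30a was at 0.27 without the first and 0.07 without the second library labelled trained NIPP1*. The star strands ran from -0.11 ± 0.22 for miR-30c-1* to 0.32 ± 0.23 for miR-30b* (adjusted p = 0.700), with 0.28 ± 0.23 for miR-30d* (adjusted p = 0.730). Without the second library labelled trained control, miR-30b* was at 0.21 and miR-30d* at 0.15. With scaling by total reads 10 of 11 products were above 0, as were 56.3% of all 476 miRNAs, and with TMM scaling 6 of 11 products. The median over the 11 was 0.10, against 0.04 over all miRNAs. It was 0.02 with TMM scaling (-0.03 over all), 0.04 without the second library labelled trained NIPP1* (0.03 over all) and 0.15 without the first labelled trained control (0.06 over all), and the signs of the fit with scaling by total reads turn with the exchange of the trained groups.

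The values of miR-30b* and miR-30d*, 2 of the 11 products, were higher in both libraries labelled trained NIPP1* than in all 3 labelled trained control, as for 18.7% of the 476 miRNAs tested, and 0 of 11 were lower in both, as for 7.77% of all. Oligodendrocyte markers did not overlap between these groups, at 4162 to 4426 RPM in the libraries labelled trained NIPP1* and 2808 to 3333 RPM in those labelled trained control. Red blood cell markers, miR-451 and both strands of miR-144, were at 145 to 272 RPM in the former and 66.2 to 138 RPM in the latter. The part of either in the values of the family was not tested. The 5 comparisons share libraries, so they are not independent of each other.

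**Figure D5:**
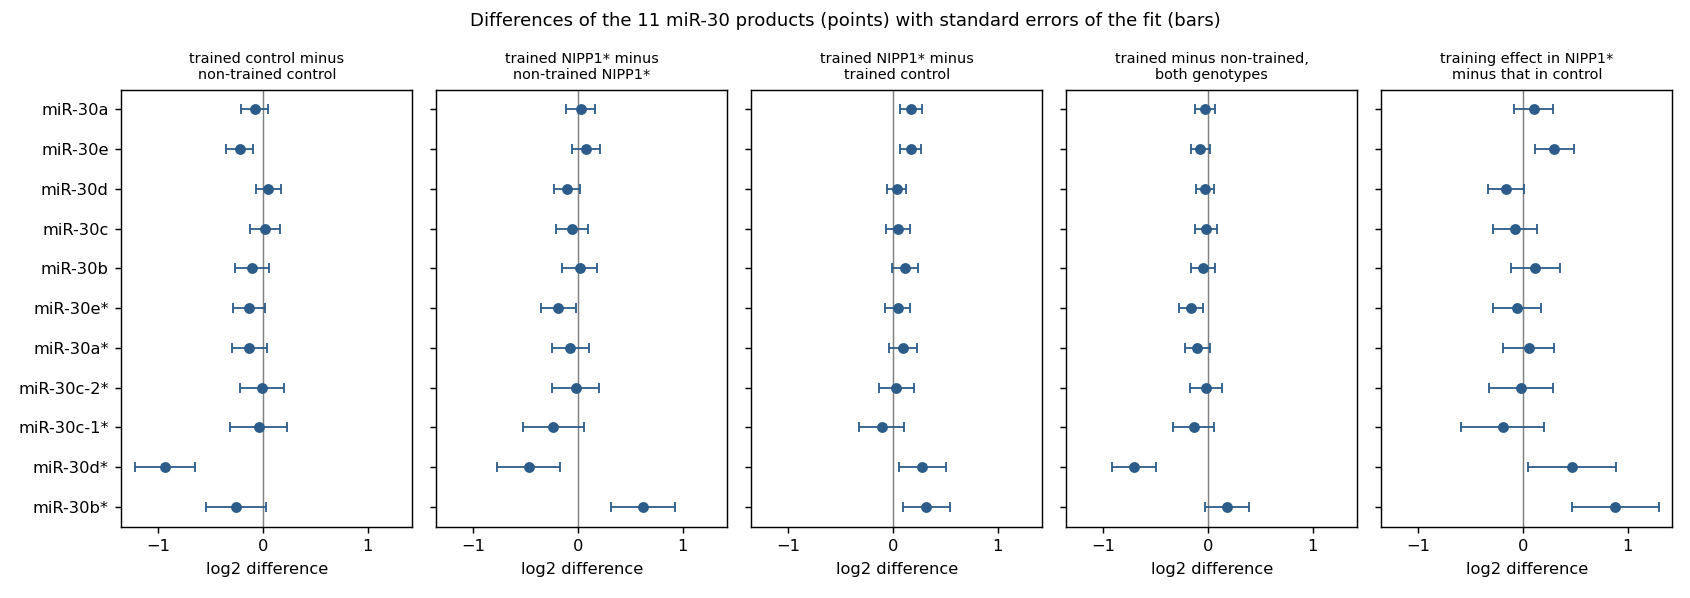
Log2 differences of the 11 miR-30 products (points) with standard errors of the limma fit (bars) in the 5 comparisons, with the direction given above each panel and 0 as a grey line. The guides (upper 5 rows) stay within 0.30 of 0, and the widest bars and largest differences are those of miR-30d* and miR-30b*, the products with the fewest reads.

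The non-trained groups had 1 library each, so the difference between them has no replicate check, and the intervals that follow are exact conditional binomial intervals (95%), which cover counting error only. Relative to the control library, the NIPP1* library held 1.14 times as much miR-30d (log2 ratio 0.19, interval 0.18 to 0.21), 1.09 times as much miR-30c (0.12, 0.09 to 0.15) and 1.05 times as much miR-30a (0.07, 0.06 to 0.08). It held 0.914 times as much miR-30e (log2 ratio -0.13, interval -0.14 to -0.12) and 0.997 times as much miR-30b. The intervals of miR-30d, miR-30c, miR-30a and miR-30e exclude 0. Libraries of the same labelled trained group differed by up to 0.20 on the log2 scale for each of miR-30c, miR-30a and miR-30e, more than the non-trained libraries did, and by up to 0.13 for miR-30d, less than they did. Marker lists moved between these libraries as well, from 14200 RPM in the control to 9972 RPM in the NIPP1* library for the pituitary, from 4850 to 3885 RPM for oligodendrocytes, from 77717 to 87349 RPM for neurons and from 1296 to 1654 RPM for leukocytes and microglia. Red blood cell markers were at 127 and 90.1 RPM, choroid plexus markers at 609 and 819 RPM, blood vessel markers at 14824 and 14791 RPM and hindbrain markers at 37.0 and 40.8 RPM in the same order, and the part of these lists in the ratios was not tested.

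The star strands of the non-trained NIPP1* library were at 1.07 times the control level for miR-30e* (log2 ratio 0.10, interval 0.04 to 0.16), 1.03 times for both miR-30a* and miR-30c-2*, and 1.06 times for miR-30c-1*. They were at 0.871 times for miR-30d* (-0.20, -0.75 to 0.34) and 0.634 times for miR-30b* (-0.66, -1.55 to 0.20), with intervals that include 0. None of the 11 products reached a log2 ratio of 1 in size, and 3 of the 322 miRNAs averaging 100 or more reads there did (0.932%). These were miR-182, miR-183 and miR-34a, named after their values were seen. Among the guides, the sum was at 1.03 times the control level.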

How the data were processed

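Pooled hippocampal RNA was sequenced in 7 small RNA libraries. The authors prepared them with a TruSeq Small RNA kit, trimmed adaptors, mapped inserts to NCBI37/mm9 with bowtie in the ncPRO-seq pipeline (the submitters' notes also list CASAVA 1.7.0 and bedtools), and deposited for each mature locus the percent of the library's miRNA reads. Whether mismatches were allowed is not given in the sources used here. The deposited comparison tables hold a signal, the mean of size-factor-scaled reads per group. It gave the exact reads of the non-trained libraries, and the trained means served only to check the labels. The table of the non-trained groups was not used, since its 2 value columns name no group, nor were the authors' fold changes and p-values in any table.

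Percentages were multiplied to RPM. Copies of a mature sequence each carried all of its reads, so they were averaged: 806 loci gave 756 sequences, of which 628 were named from the tables, by hairpin and reads (550) or by reads alone (78). Whole reads were recovered for 100% of low values, and precision was that of 7285196 to 10017762 reads. The larger deposited percentages carry 4 significant digits.

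Groups follow the labels. limma 3.58.1 (R 4.3.3) was fitted to log2(RPM + 0.5) over all 4 groups for the 476 miRNAs averaging 10 or more reads, and was tested on simulated data. Alternatives were TMM scaling, other pseudocounts (0.1, 1) and filters, edgeR 4.0.16 and DESeq2 1.42.0 on recovered reads, a model of only the groups compared, exchanged trained groups and leaving out each trained library. The study names a Wilcoxon test, which could not reach the threshold between libraries at these group sizes. The members and lists were chosen with earlier results of these data known. Named were all products of the family's hairpins, measured miRNAs with the guides' seed, the 5 miRNAs with the steadiest difference from the summed guides, and the let-7, miR-26 and miR-29 families. Annotation was GENCODE on mm9. Positions are counted from 1.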

Additional observations from a re-analysis of the deposited data

How the results depend on the processing

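Over 60 results and 587 values under alternatives, 553 kept their direction and side of the threshold, or moved by less than the spread between libraries. 0 miR-30 products were called by any alternative. DESeq2 called 1 miRNA, miR-129-2-3p, in trained against non-trained control, 2, miR-146a and miR-136, in trained against non-trained NIPP1*, 1, miR-344d-3*, between the trained groups, 1, miR-129-2-3p, for training over both genotypes and 2, miR-136 and miR-344d-3*, for the difference of the training effects, where limma and edgeR called 0. These were named after their values were seen. Without the first trained control library, the number of miRNAs at an unadjusted p below 0.05 rose from 28 to 108 in controls, 21 to 37 in NIPP1* mice, 34 to 113 between the trained groups, 16 to 65 for training over both genotypes and 37 to 85 for the difference of the training effects, with 0 called. Without any other single trained library these numbers were 14 to 16, 10 to 20, 10 to 17, 5 to 13 and 21 to 28.

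Signs turned only for values smaller than about their standard error or with exchanged labels. With TMM scaling, edgeR and DESeq2, miR-30c-2* in controls was 0.08, 0.10 and 0.10, miR-30d between the trained groups -0.04, -0.04 and -0.02, and miR-30c for training over both genotypes 0.04, 0.04 and 0.05. With the trained groups exchanged, miR-30c-2* in controls was 0.03 and miR-30e in NIPP1* mice -0.09. Between the trained groups the exchange gave miR-30a -0.17, miR-30e -0.17, miR-30d -0.04, miR-30c-1* 0.11, miR-30b* -0.32, miR-30d* -0.28 and a median of -0.10, and for the difference of the training effects miR-30e -0.04, miR-30c-1* 0.02 and miR-30d* -0.10. Leaving out single trained libraries gave -0.07 to 0.11 for miR-30c-2* in controls, and between the trained groups 0.07 to 0.27 for miR-30a, -0.03 to 0.10 for miR-30d and -0.25 to 0.00 for miR-30c-1*. For the difference of the training effects it gave -0.33 to -0.08 for miR-30c-1* and -0.22 to -0.09 for miR-30d. It gave -1.05 to -0.80 for miR-30d* in controls (adjusted p from 0.103 to 0.908).

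The summed guides came to 35122 and 38293 RPM in the libraries labelled trained control and trained NIPP1* when the copies of miR-30c were summed, which counts its reads once per copy, and to 35827 and 32733 RPM with the groups exchanged. With both miR-30c star strands set against the guide, the star share was 6.68%, against 0.401% for miR-30c-1* alone. The causes of the other changes were not tested. No paired analysis was possible because the labels number the libraries singly and give no number that the groups share.

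Depth limits miR-30b*, miR-30d* and miR-30c-1*, with 19 to 90 reads a library, while the guides had at least 6553. Each non-trained group is 1 library, so its spread was taken from the trained groups.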
